A study of Mus musculus with 20 samples.

Results

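The erythropoietin receptor gene Epor and 9 genes of the JAK2-STAT5 route below it were followed through 20 RNA-seq libraries of mouse cDC1s (conventional dendritic cells of type 1) isolated by cell sorting, the XCR1-bearing dendritic cells that present antigen to CD8 T cells. The members were chosen by symbol (Epor, Jak2, Stat5a, Stat5b, Cish, Socs1, Socs2, Socs3, Pim1 and Pim2), and all 10 were found in each of the 3 count tables, which together list 56221 gene identifiers. The first table held XCR1+CD8a+ cDC1s of WT C57BL/6 mice, untreated or at day 15 of TLI/ATS (total lymphoid irradiation with anti-thymocyte serum), 2 libraries a group. The second held EpoR+ and EpoR- cDC1s of EpoR-tdTomato reporter mice, 2 libraries a group, all after TLI/ATS at day 15. The third held cDC1s sorted as XCR1+ and SIRPa-, 3 libraries a group, from Eporflox/flox control mice and from Epor-Xcr1-Cre conditional knockout (cKO) mice. The labels give both tissues as CCR7+ and call the peripheral lymph node cells migratory, while the series' design text names CCR7 for the spleen alone. Control mice are named by the flox alleles alone, so an effect of the Cre transgene cannot be told apart from the loss of Epor. No age is given, and nothing says that libraries came from separate animals, so p-values measure only the spread between these libraries.

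Erythropoietin binding brings the kinase JAK2 on the receptor's tail into action, and JAK2 then phosphorylates STAT5A and STAT5B, which enter the nucleus and switch on target genes. Among the classic targets are Cish and the SOCS genes, whose proteins damp cytokine signalling, and Pim1 and Pim2, which encode survival kinases. The route is best known in erythroid precursors. In dendritic cells JAK2 and STAT5 also serve other cytokine receptors, such as that of GM-CSF, and phosphorylation is not seen by RNA-seq.

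STAT dimers bind the palindrome TTCNNNGAA, which reads alike on both strands, and 8.3% of 32851 RefSeq promoter windows of 300 bases (GRCm38.p6) held it. Windows were at hand for 9 of the 10 genes, all but Socs2, and the letters occurred in those of Cish and Socs3. The share of 8.3% counts windows, and Stat5a, Stat5b and Pim1 had more than a single window each. The windows of Cish and Socs3 are shown from 250 bases before the RefSeq start, because these are the members with the motif, which is in capitals.
Cish, chr9:107296409-107296688, plus strand, with 30 bases after the start: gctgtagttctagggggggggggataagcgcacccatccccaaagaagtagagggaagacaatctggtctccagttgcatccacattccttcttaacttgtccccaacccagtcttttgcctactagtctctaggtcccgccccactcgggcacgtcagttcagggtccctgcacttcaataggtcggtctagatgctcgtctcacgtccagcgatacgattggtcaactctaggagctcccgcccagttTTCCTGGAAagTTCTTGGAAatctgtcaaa
Socs3, chr11:117969367-117969616, minus strand: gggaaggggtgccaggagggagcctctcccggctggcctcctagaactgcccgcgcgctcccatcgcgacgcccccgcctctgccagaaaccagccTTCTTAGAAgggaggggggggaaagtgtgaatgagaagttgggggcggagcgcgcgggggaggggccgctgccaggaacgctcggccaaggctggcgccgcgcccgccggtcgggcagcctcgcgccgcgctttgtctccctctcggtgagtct
The 2 matches of Cish lay at and 11 bases after the RefSeq start, and the match of Socs3 began 154 bases before its own. Both windows lay inside the genes as annotated in GENCODE, downstream of the gene starts given there. These are matches of letters and not measured binding sites.

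Library totals ran from 26.6 to 77.6 M counts (counts times 1e-06). Levels are given as CPM, counts scaled to the size of the library after TMM scaling, and the floor of 3 counts lay between 0.0384 and 0.1205 CPM. Libraries of a group correlated at r of 0.930 to 0.985 across genes. Changes are log2 fold changes ± SE with Benjamini-Hochberg adjusted p from edgeR's quasi-likelihood test, called at an adjusted p below 0.05. The adjustment covered the genes of a table that passed the filter on low counts. The SE was worked back from the log2 change and the F value of that test. In such bulk samples, fewer cells of a type and less RNA per cell cannot be told apart.

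Epor was read first, as a check of the labels. It had 236 and 127 counts after TLI/ATS and 0 in both untreated libraries. EpoR+ libraries held 525 and 657 counts and EpoR- libraries 4 and 11. In lymph node controls it had 24, 28 and 4 counts, against 0 in all 3 lymph node cKO libraries. The spleen gave few counts in either genotype, 1, 0 and 6 in control and 0, 2 and 0 in cKO. Epor RNA therefore separated the groups everywhere but in the spleen, where the deletion could not be checked at this depth.

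**Figure D1:**
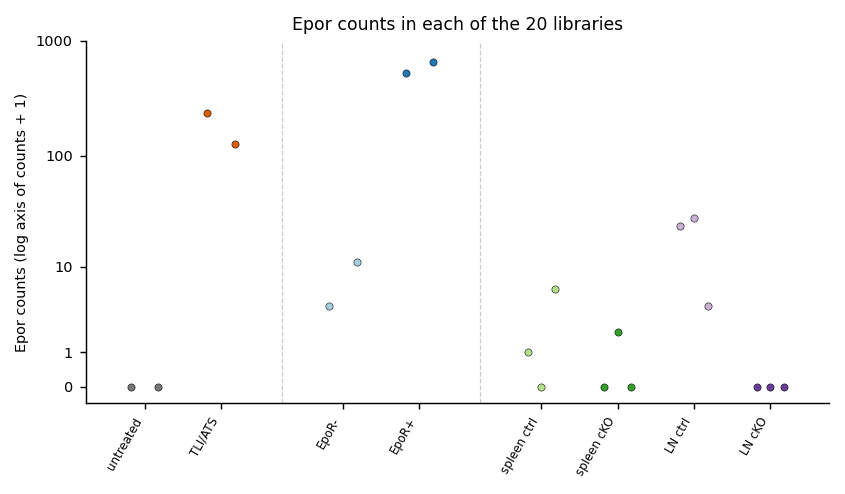
Epor counts in each of the 20 libraries (points) by group, on a log axis of counts + 1; dashed lines divide the 3 separately counted tables. The EpoR+ libraries reach 525 and 657 counts, while both untreated and all 3 lymph node cKO libraries are at 0.

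In CPM, Epor was 3.02 and 2.07 after TLI/ATS and listed at 0 without treatment. It was at least 78.6-fold higher after TLI/ATS, taking 3 counts over the untreated group as the floor (at least 72.5-fold with library totals). The exact 95% lower limit of the ratio was smaller, at 63.6. The edgeR test called it (adjusted p = 0.0223), but it passed the filter on low counts through the treated group alone. With 2 libraries against 2, the exact two-sided permutation p was 0.333, the smallest possible. In the reporter sort the ratio of EpoR+ to EpoR- was 76.4 (95% exact interval 46.1 to 137), which describes the sort. Lymph node controls stood at 0.537, 0.626 and 0.0967 CPM, at least 20.4-fold above lymph node cKO by the floor of 3 counts over the group. The exact 95% upper limit of the ratio of cKO to control was 0.0623, and the third control lay close to its own floor of 0.0725 CPM. With 3 libraries against 3, the exact two-sided permutation p was 0.1, the smallest possible. In the spleen the ratio of cKO to control was 0.244 (0.0247 to 1.28), an interval that includes no change. These intervals cover counting error only, and a read pair could add 2 counts in the last 2 tables, so they are too narrow.

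Epor was above 0 in all 3 lymph node controls, and there the erythroid genes Slc4a1, Hba-a2, Hbb-bs and Hbb-bt were at 0 counts. The 11 erythroid markers found summed to 0.653 to 1.23 CPM in these libraries. Markers of red pulp or tissue macrophages summed to 125 to 142 CPM there and 285 to 292 CPM in spleen controls. Of 11 of these tested, 3 were higher in lymph node controls (C1qa, C1qb and C1qc) and 5 lower. Which cells gave the Epor counts was not tested. After TLI/ATS the erythroid markers summed to 1429 to 1469 CPM, against 206 to 215 without it, and 7 of 9 tested rose. In EpoR+ libraries they summed to 1849.7 to 2256 CPM against 178 to 269 in EpoR-, and 11 of 11 rose. Markers of red pulp or tissue macrophages summed to 21402 to 21588 CPM in EpoR+ and 286 to 302 in EpoR- libraries, with 12 of 12 higher. They summed to 1096 to 1549.5 CPM after TLI/ATS and 198 to 216 without it, with 9 of 12 higher. The cDC1 markers themselves summed to 7479 to 8946 CPM in EpoR+ and 15865 to 17626 CPM in EpoR- libraries, and 9 of 10 fell. These marker levels move with every EpoR+ and TLI/ATS difference below, and their part in those differences was not tested.

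**Figure D2:**
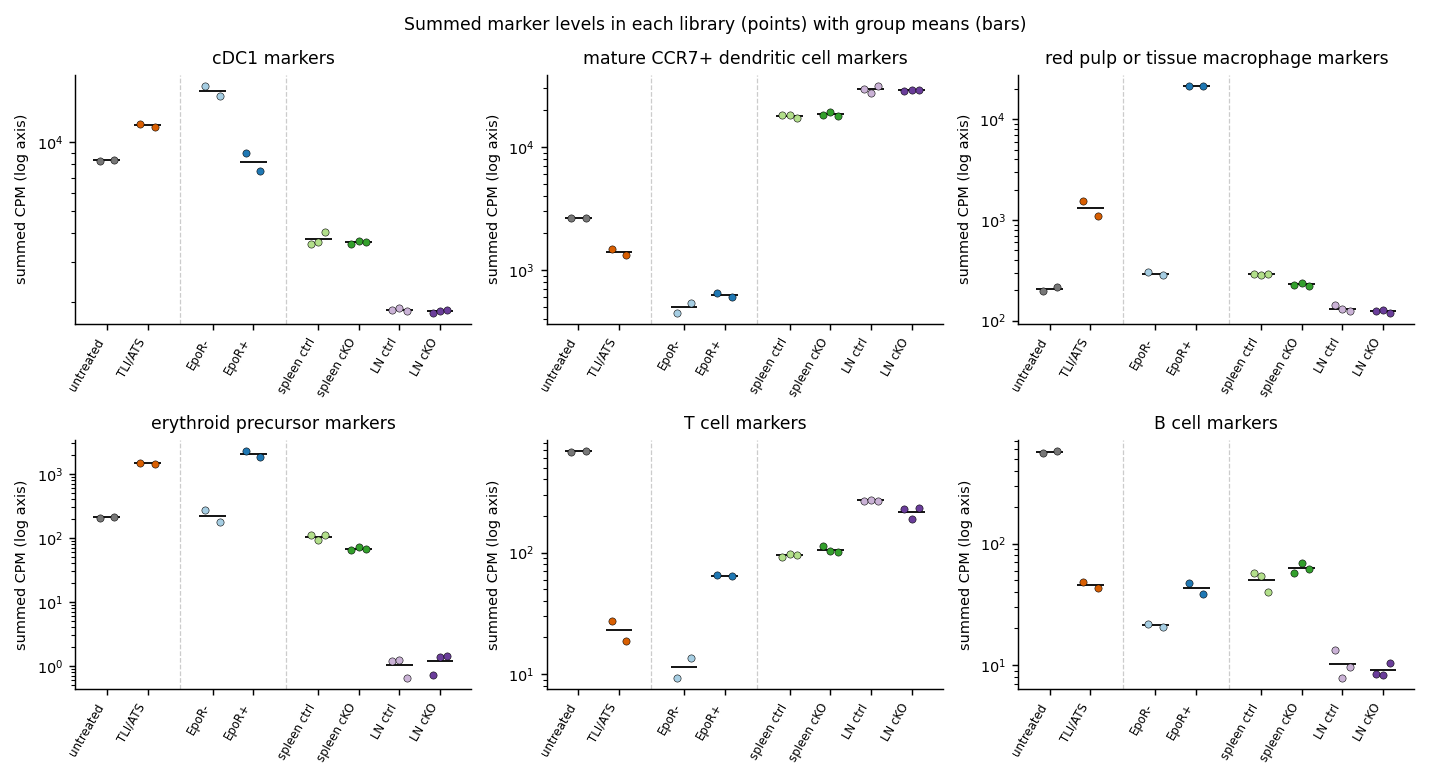
Summed CPM (log axis) of 6 marker lists in each library (points) with group means (bars). Dashed lines divide the separately counted tables, so levels are compared within a table. Macrophage and erythroid markers are higher in EpoR+ than in EpoR- libraries, and higher after TLI/ATS than without it. T and B cell markers are higher in untreated than in TLI/ATS libraries.

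After TLI/ATS, 2 of the 10 genes were called, Epor higher and Pim2 lower, where 2.7% of 17236 genes tested were called. Epor entered the test through its counts in the treated group alone. Pim2, a survival kinase gene, was at 13.7 and 15.5 CPM after treatment and 43.6 and 45 CPM in untreated libraries. Both treated libraries lay below both untreated ones, at a log2 change of -1.61 ± 0.19 (adjusted p = 0.0234). The adjusted p became 0.0854 without the second untreated library. T cell markers fell alongside, from 678 to 684 to 18.5 to 27.4 CPM (10 of 10 called), and B cell markers from 562 to 578 to 43.5 to 48.6 CPM (8 of 8 called). Plasmacytoid dendritic cell markers fell too, from 1008 to 1027 to 229 to 258 CPM (5 of 7 called). Mature CCR7+ dendritic cell markers summed to 1318 to 1477 CPM against 2653 to 2667 CPM, with 2 of 10 lower. Whether any of these cells carried the Pim2 RNA was not tested.

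Socs2, a feedback inhibitor, was at 18.4 and 25 CPM after TLI/ATS and 41.5 and 39.3 CPM without, with no overlap. Its log2 change of -0.90 ± 0.22 was not called by edgeR (adjusted p = 0.137), though it was by DESeq2 (adjusted p = 0.0125). Socs3 was at 49 and 39.3 CPM against 29.1 and 33.1 CPM, a log2 change of 0.51 ± 0.20 (adjusted p = 0.329). Pim1 was at 111 and 109 CPM against 154 and 130.5 CPM (-0.37 ± 0.17, adjusted p = 0.397). In all, 5 of the 10 genes did not overlap between the groups, beside 47.5% of all genes tested.

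The kinase and both transcription factors could not be placed after TLI/ATS, because the treated libraries disagreed. Jak2 was at 228 and 113 CPM, either side of the untreated 149 and 153 CPM. Stat5b was at 81 and 48.7 CPM, again on both sides of 65.8 and 60.6 CPM. Stat5a was at 54.9 and 30.8 CPM and Cish at 0.409 and 3.73 CPM, while untreated libraries gave 51.2 and 43.1 CPM and 1.89 and 1.77 CPM. Leaving out the first treated library gave Jak2 a log2 change of -0.42, and leaving out the second gave 0.59.

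In the reporter sort, 4 of the 10 genes were called, where 16.7% of 15627 genes tested were. Epor is among the 4, but the groups were sorted on its reporter, so its call describes the sort. Besides Epor, Socs2 and Stat5b were higher in EpoR+ libraries and Jak2 was lower. Socs2 was at 25.1 and 20.4 CPM in EpoR+ and 5.82 and 6.96 CPM in EpoR- libraries. This log2 difference of 1.83 ± 0.21 (adjusted p = 0.00405) stayed called under every alternative run. Jak2, the kinase on the receptor's tail, was at 250.0 and 239 CPM in EpoR+ and 403 and 432 CPM in EpoR- libraries. It was lower by a log2 difference of -0.77 ± 0.10 (adjusted p = 0.00603). Stat5b was at 121 and 118 CPM against 89.7 and 89.7 CPM, a log2 difference of 0.41 ± 0.10 (adjusted p = 0.0481). That call was lost without any 1 of the 4 libraries (adjusted p 0.158 to 0.279) and with RLE size factors (0.0773).

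The other members gave no call between EpoR+ and EpoR- by edgeR without a block on replicate numbers. Socs3 was at 26.5 and 62.9 CPM in EpoR+ and 14.7 and 24.8 CPM in EpoR- libraries, and the spread within EpoR+ was wide (1.18 ± 0.53, adjusted p = 0.239). DESeq2 called it (adjusted p = 0.0409). Cish, a direct STAT5 target in other cells, was at 1.63 and 2.54 CPM and 1.66 and 1.13 CPM, and the groups overlapped (adjusted p = 0.525). Pim1 was at 278 and 527 CPM and 366 and 572 CPM and also overlapped. Stat5a, Socs1 and Pim2 did not overlap, with log2 differences of -0.15, -0.37 and 0.12. The groups did not overlap for 8 of the 10 genes, with Epor, on which they were sorted, among the 8. The share of all genes tested was 58.2%.

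**Figure D3:**
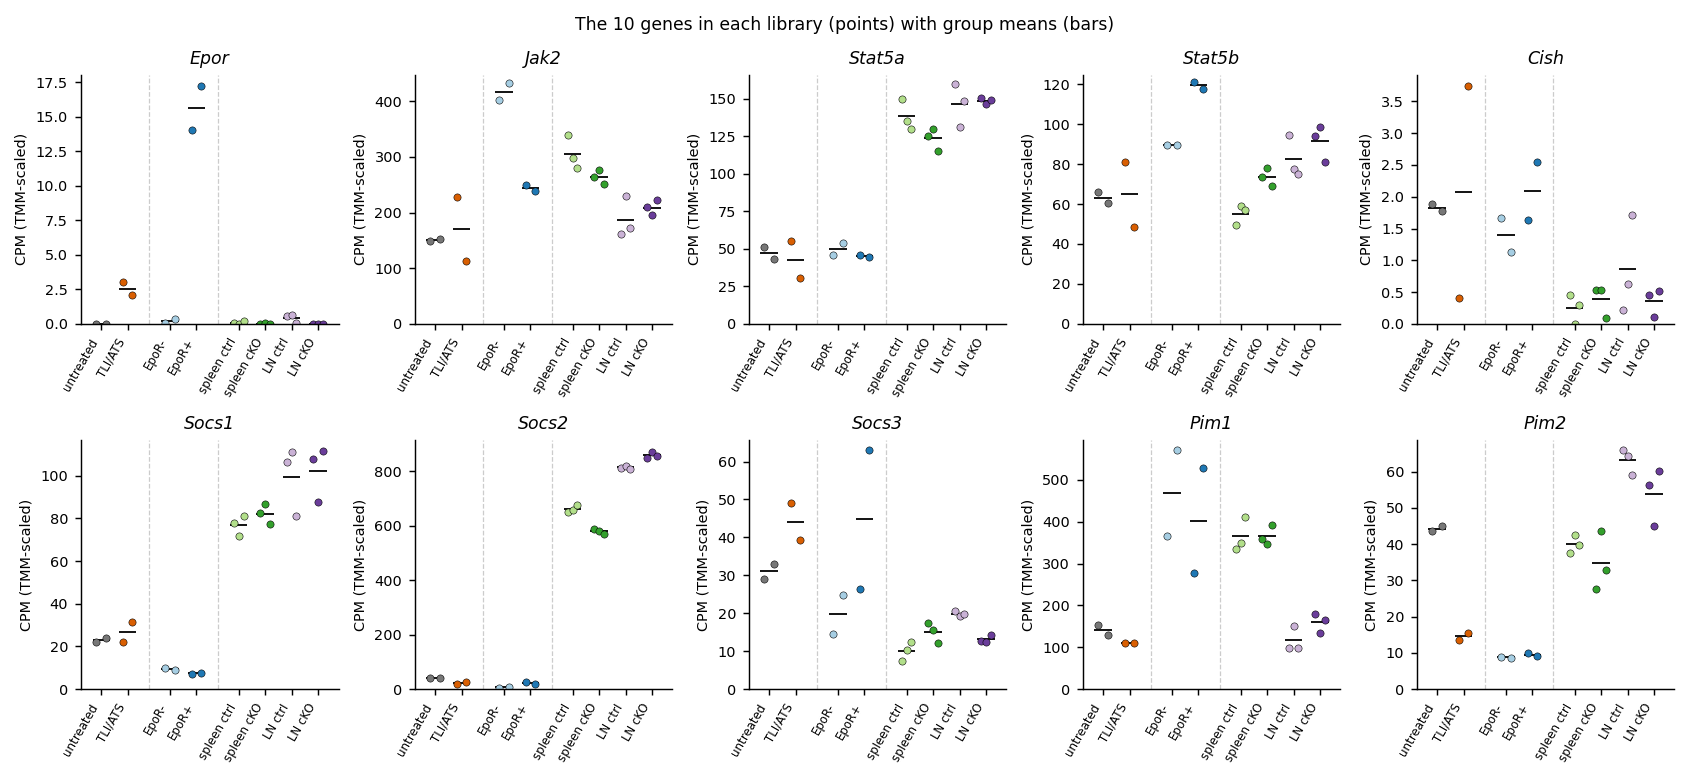
CPM of the 10 genes in each library (points) with group means (bars); dashed lines divide tables that were counted separately, so levels are compared within a table. Socs2 is higher in EpoR+ than in EpoR- libraries and higher in lymph node (LN) than in spleen, while Pim1 is lower in lymph node than in spleen.

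None of the 9 members tested was called between cKO and control in either tissue. Of 17362 genes, 0.611% were called in the spleen and 0.455% in the lymph node, and Epor itself was removed by the filter on low counts. At an unadjusted p below 0.05 by edgeR there were 3 members in the spleen, beside 13% of all genes, and 2 in the lymph node, beside 7.51%. DESeq2 called 2 in the spleen, Stat5b (adjusted p = 0.0497) and Socs2 (0.0158), and 0 in the lymph node.

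In the spleen, Stat5b was at 73.5, 78.2 and 69.1 CPM in cKO and 49.5, 59 and 57 CPM in control libraries, with no overlap. The log2 change was 0.42 ± 0.12 (adjusted p = 0.139). Socs2 was at 587, 580.0 and 570.2 CPM against 648, 657 and 675 CPM, also without overlap, at -0.19 ± 0.06 (adjusted p = 0.175). Socs3 was at 17.3, 15.5 and 12.2 CPM against 7.47, 10.4 and 12.5 CPM, and the groups overlapped (0.57 ± 0.21, adjusted p = 0.255). With Jak2, 3 members did not overlap, beside 18% of all genes. Plasma cell markers summed to 1486 to 1620.5 CPM in spleen controls and 2885 to 3195 CPM in spleen cKO, with 3 of 8 higher. Macrophage markers summed to 285 to 292 CPM in spleen controls and 221 to 237 CPM in spleen cKO, with 1 of 11 lower. Erythroid markers went from 92.9 to 112 CPM in control to 65.2 to 71.1 CPM in cKO, with 0 of 5 called. Basophil, mast cell or megakaryocyte markers went from 3.45 to 7.43 CPM to 16.8 to 18.9 CPM, with 0 of 4 called. The part of these markers was not tested.

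In the lymph node, Socs3 was at 12.8, 12.5 and 14.2 CPM in cKO and 20.5, 19.2 and 19.8 CPM in control libraries, with no overlap. The log2 change was -0.59 ± 0.20 (adjusted p = 0.421). Pim1 was at 180.4, 133 and 165 CPM against 99.1, 151 and 99.5 CPM, overlapping through the second control library (0.45 ± 0.15, adjusted p = 0.371). Without that library the change was 0.69 (adjusted p = 0.0299), and without the filter on low counts the adjusted p was 0.00256. Socs2 was at 846, 871 and 854 CPM against 812, 819.5 and 807 CPM, without overlap but at only 0.08 ± 0.06. With Socs3 this made 2 of the 9 tested members without overlap, beside 15.5% of all genes, while Epor, not tested, did not overlap either. T cell markers summed to 190 to 234 CPM in lymph node cKO and 265 to 273 CPM in lymph node controls, with 0 of 10 called. Of 10 cDC1 markers, 2 were higher in lymph node cKO, Clec9a (0.62 ± 0.11) and Cd8a (0.51 ± 0.09), and 0 lower. The part of these markers was not tested.

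The mean of Socs3 thus lay higher in spleen cKO and lower in lymph node cKO than in the matching controls. The difference between the tissues' cKO effects, tested as an interaction, was -1.16 ± 0.29 on the log2 scale (adjusted p = 0.116). It passed without the third spleen control library (adjusted p = 0.036), without the filter on low counts (0.0387) and in DESeq2 (0.00858), so the call rests on those choices. The interaction gave 0 calls on members by edgeR, beside 0.317% of genes called. At an unadjusted p below 0.05 there were 4 of 9 members, Socs3 among them, beside 12.5% of all genes. DESeq2 also called Socs2 (0.28, adjusted p = 0.0252).

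**Figure D4:**
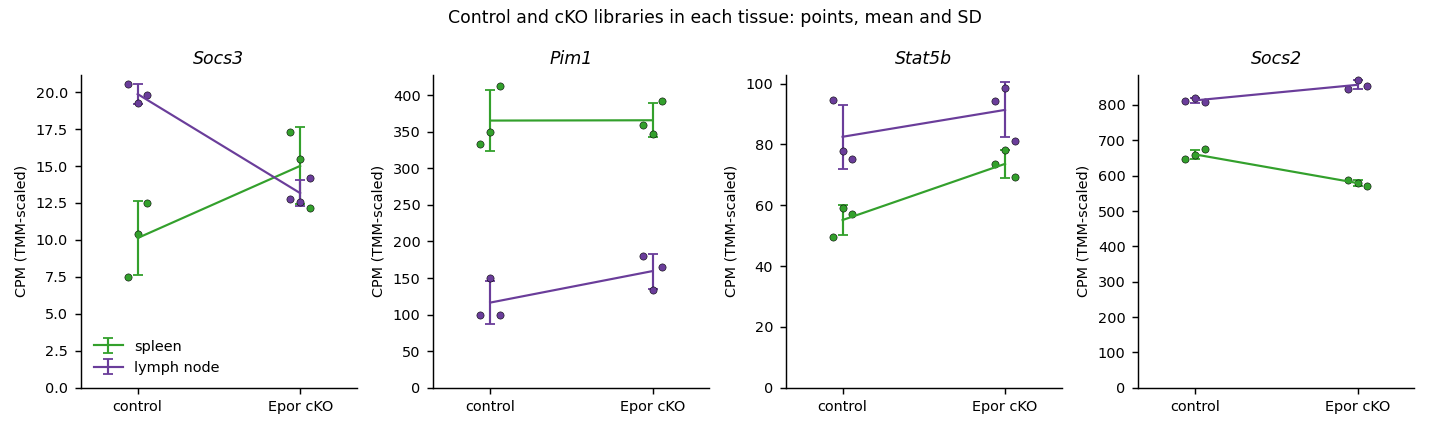
CPM of Socs3, Pim1, Stat5b and Socs2 in control and Epor cKO libraries of spleen and lymph node (points, with mean and SD, n = 3). The Socs3 lines cross, from 7.47 to 12.5 CPM in spleen control to 12.2 to 17.3 CPM in spleen cKO and from 19.2 to 20.5 CPM down to 12.5 to 14.2 CPM in lymph node.

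More members were called between tissues than between genotypes: 7 of 9 tested differed between lymph node and spleen in controls (background 41.3%) and 5 of 9 in cKO (29.4%). The sort gates of the tissues may differ too, which cannot be told apart from tissue, and the cKO and control contrasts share no library. With library totals in place of TMM, the median change of all genes shifted to 0.28 in control and 0.25 in cKO, so directions below are relative to TMM scaling. Mature CCR7+ dendritic cell markers summed to 27359 to 31294 CPM in lymph node and 17063 to 18303 CPM in spleen controls, while cDC1 markers summed to 1831 to 1885 and 3583 to 4033 CPM. T cell markers summed to 265 to 273 CPM in lymph node and 92.1 to 98 CPM in spleen controls, with 8 of 10 higher. Plasma cell markers summed to 303 to 333 and 1486 to 1620.5 CPM, with 4 of 8 lower and 1 higher. Erythroid markers summed to 0.653 to 1.23 and 92.9 to 112 CPM, with 4 of 5 tested lower. The part of these cells in the tissue differences was not tested.

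Pim1 was lower in lymph node controls, at 99.1, 151 and 99.5 CPM against 334, 350.0 and 412 CPM in spleen. The log2 difference was -1.65 ± 0.15 in controls (adjusted p = 5.89e-07) and -1.20 ± 0.15 in cKO (adjusted p = 2.18e-05). Pim1 shares 14.5% of its exon bases with the antisense gene Gm26885, which counting without strand cannot separate. Pim2 went the other way, at 65.9, 64.3 and 59.1 CPM against 37.7, 42.5 and 39.8 CPM (0.66 ± 0.15, adjusted p = 0.003), and by 0.63 ± 0.15 in cKO. Socs2 was at 812, 819.5 and 807 CPM in lymph node and 648, 657 and 675 CPM in spleen controls (0.30 ± 0.06, adjusted p = 0.000657). In cKO its difference was 0.57 ± 0.06 (adjusted p = 2.68e-06).

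Jak2 was lower in lymph node controls, at 161, 229 and 172 CPM against 339, 298 and 281 CPM (-0.71 ± 0.12, adjusted p = 0.000179). Stat5b was higher, at 94.7, 77.7 and 75.2 CPM against 49.5, 59 and 57 CPM (0.58 ± 0.12, adjusted p = 0.000883). Socs3 was higher by 0.97 ± 0.21 (adjusted p = 0.00148) in controls and not called in cKO (-0.19 ± 0.20, adjusted p = 0.535). Socs1, at 106, 111 and 81.3 CPM against 78, 71.8 and 81.1 CPM, was called at 0.37 ± 0.12 (adjusted p = 0.0256). That call was lost without the first or second lymph node control or the second spleen control (adjusted p 0.057 to 0.109). In cKO the calls of Jak2 (-0.34, adjusted p = 0.0398) and Stat5a (0.27, adjusted p = 0.0392) were each lost under several alternatives, Jak2 with any 1 cKO library left out. Groups did not overlap for 7 of 9 members in controls (49.5% of all genes) and 7 of 9 in cKO (50.9%).

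**Figure D5:**
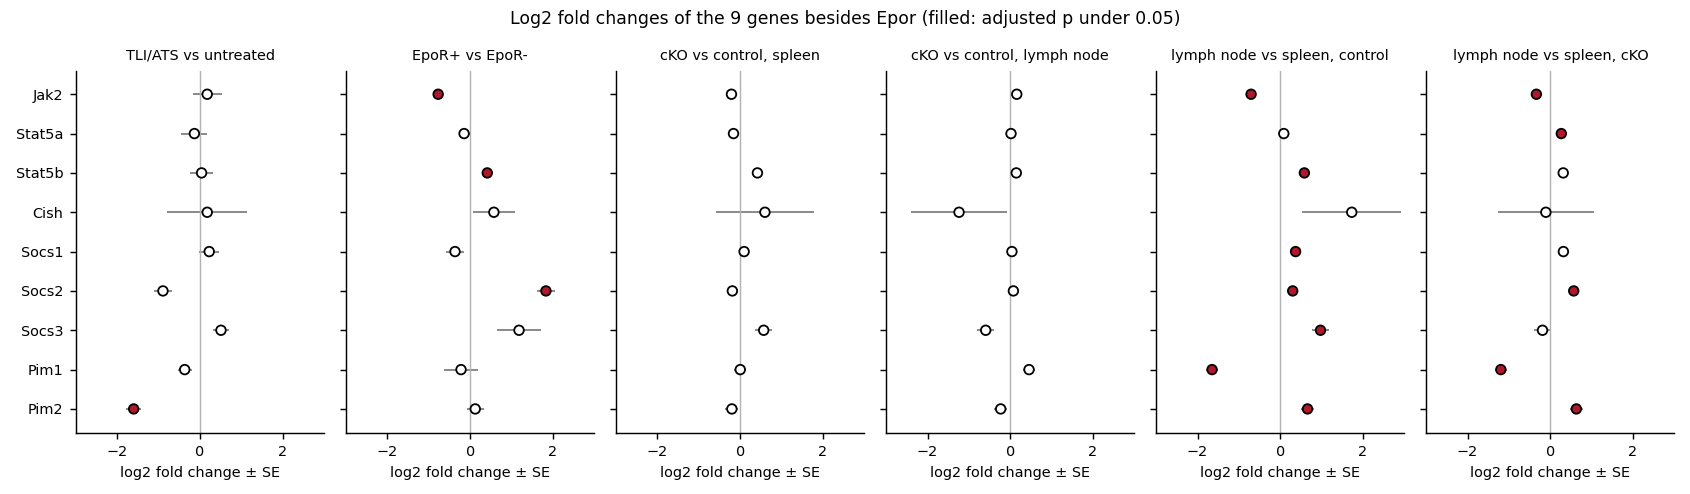
Log2 fold changes ± SE of the 9 genes besides Epor in 6 comparisons, filled where the edgeR adjusted p is below 0.05. No point is filled in either cKO comparison, and 7 are filled for lymph node against spleen in controls.

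Per kilobase of exon, the order of the members differed between groups. Socs2 had the highest level in lymph node controls, at 85.3 ± 0.64 RPKM (SD, n = 3), above Jak2 at 37.3 ± 7.3 RPKM. Pim1 led in spleen controls at 109 ± 12 RPKM, ahead of Socs2 at 69.3 ± 1.4 RPKM. In EpoR+ libraries Epor ranked 5 of 10, at 7.05 and 8.64 RPKM, above Stat5a at 6.41 and 6.24 RPKM without overlap. No test was run between the 2 genes. Cish was at or next to the bottom in all 8 groups, at 0.0393 to 0.325 RPKM, and it shares 11.5% of its exon bases with antisense genes.

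The wider pathway was read from lists of related genes. In the reporter sort, where 16.7% of all genes were called in either direction, receptors that use JAK2 or STAT5 had 4 of 16 tested higher and 1 lower, with a median log2 difference of 0.54 against 0.02 over all genes. Csf3r, the G-CSF receptor gene, was higher by 2.81 ± 0.41 and Ifngr1 lower by a difference of -0.58 ± 0.09. Among brakes on the route 2 of 14 were higher, the phosphatase genes Ptpn1 (1.24 ± 0.12) and Ptpn6 (0.93 ± 0.11), and 3 were lower, among them the ubiquitin ligase genes Cbl and Cblb. Adaptors had 4 of 19 higher, led by Gab1 (4.52 ± 0.32), and 2 lower. STAT5 survival, growth and iron targets had 4 of 18 higher, including Tfrc, the transferrin receptor gene (1.42 ± 0.16), and 1 lower.

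After TLI/ATS, where 2.7% of all genes were called, the receptor list had 3 of 14 lower and 0 higher, all lymphoid cytokine receptor genes: Il2rb (-3.68 ± 0.43), Il7r (-3.61 ± 0.24) and Il2rg (-1.53 ± 0.16). Stat4 was lower by a log2 change of -1.72 ± 0.24, while 0 of 14 brakes and 0 of 19 adaptors were called. Of 17 STAT5 targets tested, 2 were lower, Xiap (-1.56 ± 0.21) and Ccnd2 (-1.22 ± 0.17). The other called target, Lcn2, was higher, with 166 counts over the treated group and 0 over the untreated one. Like Epor, it passed the filter on low counts through the treated group alone. The T cell, B cell and plasmacytoid dendritic cell markers given above fell in the same libraries, and their part in these changes was not tested. In spleen cKO none of the 77 pathway genes tested was called, beside 0.611% of all genes. In lymph node cKO 2 of 77 were higher, beside 0.455% of all genes called in either direction. These were the PI3-kinase subunit gene Pik3r1 (0.42 ± 0.08, adjusted p = 0.0212) and the cyclin gene Ccnd2 (0.61 ± 0.11, adjusted p = 0.0225).

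Between tissues in controls, where 41.3% of all genes were called in either direction, JAK and STAT relatives had 6 of 13 higher in lymph node and 4 lower. Jak3, the kinase of common gamma chain receptors, was higher by 1.94 ± 0.19 and Stat4 by 1.19 ± 0.17, while Pim3 was lower by a log2 difference of -1.05 ± 0.13. Receptors had 5 of 14 higher and 4 lower, brakes 4 of 14 higher and 5 lower, adaptors 4 of 19 higher and 6 lower, and STAT5 targets 4 of 17 higher and 8 lower.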

How the data were processed

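All values were raw read counts per gene, deposited by the authors without normalization. Per the submitters' processing notes, the tables came from HISAT2 and featureCounts on GRCm38 or mm10 (HISAT2 2.1.0 and featureCounts 2.0.8 for the cKO table). Per the file headers, the reporter and cKO tables were counted without strand, and pairs were not counted as fragments. The cKO libraries began from 10 ng of RNA, per the labels' protocols. Symbols and overlaps came from GENCODE vM21. Exon lengths deposited in the cKO table also served for RPKM in the first. The columns of the first 2 tables were tied to groups by abbreviations that the labels do not spell out.

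Each table was fitted apart in edgeR 4.0.16 (R 4.3.3) after filterByExpr (minimum count 10, minimum total 15) with TMM scaling, and all groups of a table shared 1 estimate of spread. Alternatives were DESeq2 1.42.0, RLE or total scaling, no filter, a replicate block and leaving out each library. The fits of TLI/ATS, EpoR+ and spleen cKO were tested on simulated data, and the other comparisons were not. Log2 changes of 1 were recovered in 13.4%, 37% and 69.4% of changed genes, so most were missed in TLI/ATS and EpoR+. Log2 changes of 2 were recovered in 86.4%, 95% and 98%. The changed genes were drawn from those with a mean above 5 CPM, which leaves out Cish. Changes smaller than 1 were not simulated, so these shares do not cover the smaller changes seen in cKO. False calls numbered 15, 28 and 5, where 112, 100 and 98 genes had been changed by 1 and 88, 100 and 102 by 2. Among all calls the share of false ones thus lay above the adjusted p threshold in TLI/ATS and EpoR+, and below it in spleen cKO. No molecular identifiers were used, so intervals and floors (95% exact, 3 counts) cover counting error only.

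The CPM denominator was changed after values had been seen. CPM was first computed over library totals, and TMM-scaled sizes replaced these so that printed levels match the fitted changes. Both versions are compared in the closing section. The fits do not use CPM, so calls were not affected. The members and lists were chosen with earlier results of these data known. Genes named from a list were up to 3 called genes a direction with the largest change, and the genes most like a member were the 5 protein-coding genes with the highest correlation. Some results on listed genes are not reported here.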

Additional observations from a re-analysis of the deposited data

How the results depend on the processing

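Of 18 calls on members, all 18 kept their sign under every alternative run and 13 stayed called under each. The 18 include Epor after TLI/ATS and in the reporter sort, the latter set by the sort itself. The choice of CPM denominator, made after values had been seen, left 5 of 10 members not overlapping after TLI/ATS and 3 and 7 of 9 in spleen cKO and control tissues under both. Library totals gave 7 in place of 8 for EpoR+ against EpoR-, 3 in place of 2 for lymph node cKO and 6 in place of 7 between tissues in cKO. The same number did not mean the same genes: with totals Socs3 replaced Jak2 in spleen cKO, and Stat5a replaced Jak2 between control tissues.

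Members called with 1 library left out ranged from 1 to 8 after TLI/ATS, from 0 to 1 in lymph node cKO and in the interaction, and from 3 to 4 between tissues in cKO. DESeq2 called 2 members in spleen cKO and 2 in the interaction, and dropping the filter gave 1 in lymph node cKO and 1 in the interaction. Over all genes, DESeq2 called 1414 after TLI/ATS, 549 in spleen cKO, 177 in lymph node cKO and 426 in the interaction, against 465, 106, 79 and 55. Without the filter the last 3 were 436, 170 and 364, and with genes of other cells left out 20, 49 and 15. Fitting lymph node libraries alone gave 44. Leaving out 1 library gave 476 to 4908 after TLI/ATS, 1454 to 2600 in EpoR+, 31 to 379 in spleen cKO, 51 to 72 in lymph node cKO and 29 to 222 in the interaction.

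The replicate block gave 1264 genes after TLI/ATS, 5347 in EpoR+, 40 in spleen cKO and 34 in the interaction. It called 6 members in EpoR+, adding Socs3 (1.11, adjusted p = 0.00185 by edgeR) and Pim1 (-0.26, adjusted p = 0.0434), where same-numbered libraries correlated at 0.451 in deviation, but nothing in the labels ties the numbers. In the other tables no such correlation passed 0.1.

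Directions reversed only for uncalled members. After TLI/ATS, library totals gave Stat5b -0.067 and Cish -0.0056, and the replicate block -0.0082 and -0.51. With 1 library left out, ranges after TLI/ATS were -0.37 to 0.36 for Stat5b, -2.15 to 1.03 for Cish, -0.42 to 0.59 for Jak2, -0.61 to 0.22 for Stat5a and -0.054 to 0.46 for Socs1. They were -0.75 to 0.16 for Pim1 in EpoR+, -0.042 to 0.12 for Pim1 in spleen cKO (DESeq2 and RLE -0.012), -0.052 to 0.086 for Stat5a and -0.088 to 0.14 for Socs1 in lymph node cKO. In the interaction they were -0.18 to 0.044 for Socs1 and -0.18 to 0.16 for Pim2. Between tissues in cKO, Cish ran from -0.55 to 0.32, and totals gave Cish 0.11 and Socs3 0.053. The cause was not tested.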

Other observations

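Likeness to a member was measured as Pearson's r over the 20 libraries, on log2(CPM + 0.1) centred within each table, among 12361 protein-coding genes. It is a description: libraries of a table share their counting, and the values follow the few group contrasts. The genes most like Epor were Ccn5 (r = 0.94), Paqr9 (0.921), Tmem37 (0.91), Acot4 (0.907) and Vnn3 (0.902), and the same 5 led with library totals as the CPM denominator. For Cish they were Clec11a (0.836), Wdr4 (0.822), Utp11 (0.799), Mrpl16 (0.79) and 5730409E04Rik (0.769), of which 4 of 5 led with totals, all but Utp11. For Socs2 they were Rap2b (0.95), Apobec1 (0.932), Ifi27l2a (0.928), Ifi27 (0.926) and Nmrk1 (0.921). There 3 of 5 led with totals, so Apobec1 and Nmrk1 depend on a denominator chosen after values had been seen.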
